A study of Mus musculus with 18 samples.

Results

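Mouse embryonic stem cells collected 15 min after 10 Gy of ionizing radiation (IR) are called ESRE in what follows, and the unirradiated stem cells that served as their control are called ES. Each group has 3 samples, so the comparison holds 6 of the 18 samples of the series, and all genes on the array were followed in them. Both groups were early passage primary ES cells that were kept on gelatin, without feeder cells, in medium with leukemia inhibitory factor, and no genetic change was made to either. Other groups enter only beside a result. They are ESRL (the same stem cells 4 h after 10 Gy), ED (isogenic cells differentiated by withdrawal of leukemia inhibitory factor, unirradiated) and EDRE (ED cells 15 min after 10 Gy), with 3 samples each. The labels say that cells were irradiated in triplicate, but not whether the replicates were separate cultures, so p-values measure the spread between these samples, which may be technical.

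X-rays break both strands of DNA, and within minutes the kinases of the DNA damage response, ATM among them, phosphorylate proteins at the break. The protein p53 is stabilized in that process and switches on target genes such as Cdkn1a, a cell cycle inhibitor, and Mdm2, its own antagonist. Immediate early genes such as Fos and Egr1 need no new protein to be transcribed and are among the fastest mRNAs to rise after stress. Protein phosphatase 2A (PP2A), whose catalytic subunits are encoded by Ppp2ca and Ppp2cb, removes phosphates from many proteins of the damage response.

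Each RNA was read on 1 one-color Agilent array after labeling with the dye Cy3. A level is given throughout as the log2 of the processed signal minus the log2 of the array's 75th percentile, so that 0 is the brightness of that percentile, and a change is the difference of such levels, ESRE minus ES. The 75th percentile lay between 2914 and 3529 on the ES arrays and between 2806 and 3218 on the ESRE arrays. Signals well above background were found for 81.4% to 86.1% of probes in ES and for 71.5% to 85.7% in ESRE. Outlier spots, as Feature Extraction marks them, were left out. They made up 7.01% to 11.1% of the spots in ES and 4.02% to 6.58% in ESRE. The stem cell label held in both groups. Levels of Zfp42 ran from 5.89 to 6.33 in ES and from 6.37 to 6.68 in ESRE, against −10.01 to −9.26 in ED, where it was not well above background on any array. Pou5f1, Sox2, Nanog, Dppa5a, Utf1, Tdgf1, Esrrb and Fut4 were also well above background on all 6 arrays. The lowest of the 6 levels of each was above the highest level in ED. For Nanog the levels compared include outlier spots, since only 1 of the 6 arrays had a usable spot. The 3 ES arrays share a scan time with each other and with no other array. ESRE replicates 1 and 2 share one with ESRL replicates 2 and 3, and ESRE replicate 3 shares one with the 3 ED arrays. Scan time and IR can therefore not be told apart by any value within a scan time. With scan time as a random block (consensus correlation 0.65) limma called 0 genes, at a smallest adjusted p of 1.00, with 533 of 27875 probes at an unadjusted p under 0.05. All calls below are from the fit without that block.

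At 15 min, 74 genes were higher in ESRE and 44 were lower, of 25507 genes tested (0.29% and 0.173%). To be called, a gene needed 1 probe or more that changed by over 1 in size at an adjusted p under 0.05 (limma, Benjamini-Hochberg). With the 75th percentile taken over probes well above background on all 18 arrays, 46 genes were higher and 51 lower. The change of the 74 higher genes ranged from 1.02 to 3.59 with a median of 1.55, and that of the 44 lower genes had a median of −1.63. Values of ES and ESRE did not overlap for any of the 118 genes, but this was common: of 24395 probes measured on all 6 arrays, 14.1% were higher without overlap and 20.9% lower. The median change over all genes was −0.08. It rose with the level of the gene, from −0.34 in the dimmest of 5 equal parts of the genes to 0.08 in the brightest. By the brightest probe of each gene, the dimmest part held 6 genes called higher and 19 called lower, and the brightest held 17 and 0. Of the 74 higher genes 70 were well above background on all 6 arrays, and of the 44 lower genes 22 were.

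**Figure D1:**
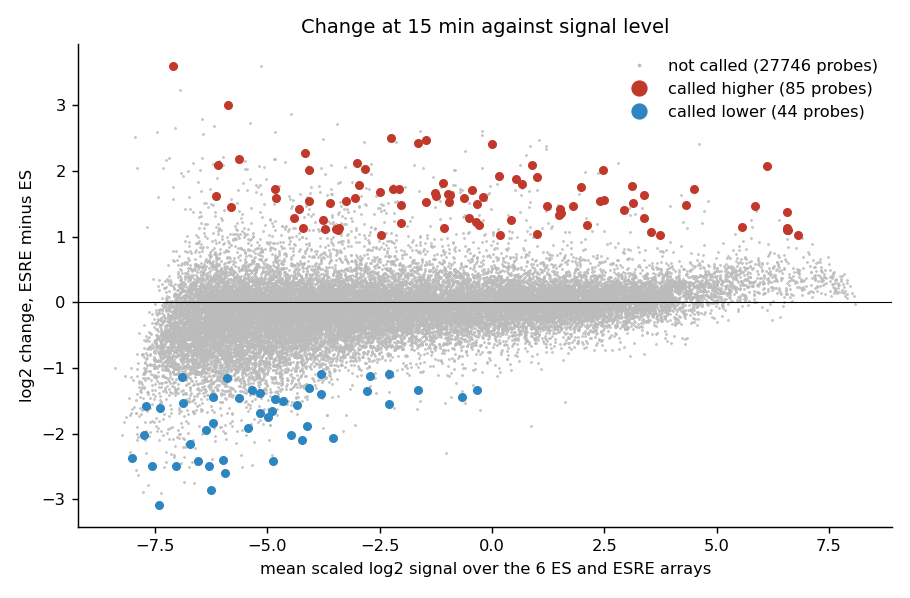
Change at 15 min (ESRE minus ES, log2) of each tested probe against its mean scaled log2 signal over the 6 arrays. Red points are the 85 probes called higher, blue points the 44 called lower and grey points those not called. Most of the probes called lower lie toward the dim end, with a few such as Prl2c5 and Prl2c3 at higher levels, and the brightest probes lie mostly above 0.

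Of the 26 gene lists examined, that of cytosolic ribosomal protein genes held the most calls. It had 77 tested genes, and Rpl12, Rpl19, Rpl34, Rpl35a and Rps27a were called, all higher (0.29% of all genes were called higher). These genes encode structural parts of the ribosome, and Rps27a encodes a ribosomal protein fused to ubiquitin. Their mRNAs are known for a pyrimidine-rich start, so the start of the promoter is shown for the 3 called genes in which the motif CTTTNC lies close to it. The sequences are from RefSeq (GRCm38.p6), cover 60 bases before and 30 bases from the annotated start, and run in the direction of the gene, with the motif in capitals. They lie at chr2:32961652-32961741 (plus strand), chr16:33056422-33056511 (plus strand) and chr3:130730308-130730397 (minus strand).
Rpl12: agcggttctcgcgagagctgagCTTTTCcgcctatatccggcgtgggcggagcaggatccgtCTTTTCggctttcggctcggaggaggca
Rpl35a: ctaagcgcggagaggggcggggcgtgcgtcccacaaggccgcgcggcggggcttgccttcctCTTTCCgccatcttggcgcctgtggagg
Rpl34: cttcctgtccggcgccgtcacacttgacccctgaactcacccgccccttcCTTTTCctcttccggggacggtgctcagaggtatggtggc

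In Rpl12 and Rpl35a the motif begins 2 bases after the start, and in Rpl34 it begins 10 bases before it. The nearest copy in Rpl19 begins 34 bases after the start, outside the stretch shown. For Rps27a no promoter window was available, so it was not searched. CTTTNC was searched in the 40 bases before and 50 bases after the start of every promoter in the table, except those on chr18. On the strand of the gene it was in 10.8% of all 32851 windows and in 44.0% of the 75 windows of ribosomal protein genes. With the other strand (GNAAAG) included it was in 20.4% and 48.0%. Among genes called higher it was in 17.5% of 63 windows on the strand of the gene. Those windows belong to 41 genes, Rpl12, Rpl35a, Rpl34 and Rpl19 among them. The share is therefore not separate from that of the ribosomal protein genes. These are matches of letters and not sites of action.

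Rpl12 had the largest rise of the 5. Its levels were 4.67 and 5.08 in ES replicates 1 and 3, the spot of replicate 2 being an outlier, and 7.04, 6.72 and 7.09 in ESRE. The change was 2.08 (SE 0.32, adjusted p = 0.0194), a 4.22-fold rise. Rpl35a was at 5.68, 5.90 and 6.09 in ES and at 7.54, 7.01 and 7.25 in ESRE, a change of 1.38 (SE 0.19, adjusted p = 0.00952). All 3 probes of Rpl35a, which stand for transcript variants of 1 gene and may share target sequence, were called, with changes from 1.10 to 1.38. Rpl34 went from 4.84, 5.01 and 5.14 to 6.27, 6.02 and 6.17, a change of 1.15 (SE 0.17, adjusted p = 0.0109). Rpl19 and Rps27a sat closer to the limit of a call. Rpl19 was at 6.31, 6.33 and 6.28 in ES and at 7.30, 7.29 and 7.38 in ESRE, a change of 1.02 (SE 0.18, adjusted p = 0.032). Rps27a was at 5.85, 6.03 and 6.22 in ES and at 7.19, 7.10 and 7.10 in ESRE, a change of 1.10 (SE 0.21, adjusted p = 0.0408). The second probe of each of these 3 genes was not called, at a change of 0.98 for Rpl19 (adjusted p = 0.039), 0.96 for Rps27a (adjusted p = 0.06) and 1.15 for Rpl34 (adjusted p = 0.062, on 2 ES arrays). The array is not known to separate mRNAs of ribosomal protein genes from those of their many near-identical pseudogenes, so each value is uncertain as to its source.

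The whole list stood higher than the median of all genes. Its median change was 0.29 against −0.08 over all genes, 68 of the 77 changes were above 0, and 41 of the 61 genes measured on all 6 arrays were higher in ESRE without overlap, where 14% of all such genes were. Over those 61 genes the median level was 6.96, 6.98 and 7.06 on the ES arrays and 7.53, 7.36 and 7.50 on the ESRE arrays. Large subunit genes had a median change of 0.24 (45 genes) and small subunit genes one of 0.36 (30 genes). Other bright genes moved by a like amount. Among genes with a mean level over 5, the 52 ribosomal protein genes had a median change of 0.35 and the 445 other genes one of 0.33. With quantile normalization, which gives all arrays the same distribution of signals, the median of the list was 0.03 and that of all genes −0.03, and Rpl19, Rpl34, Rpl35a and Rps27a were no longer called, nor were they with outlier spots kept. Rpl12 was called in both. In the deposited matrix none of these genes passed (limma). The adjusted p was 0.052 for Rpl12, 0.116 for Rpl19, 0.118 for Rpl35a, 0.437 for Rpl34 and 0.718 for Rps27a.

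Most rises lay outside this list. Sqor, the mitochondrial sulfide quinone oxidoreductase, had the lowest p of them. It was at −5.69, −5.67 and −5.45 in ES and between −4.02 and −3.99 in ESRE, a change of 1.59 (SE 0.14, adjusted p = 0.00297). Glrx encodes glutaredoxin, which reduces disulfides formed with glutathione. Its levels of −0.26, −0.25 and −0.21 in ES stood against 1.50, 1.45 and 1.74 in ESRE, a change of 1.81 (SE 0.19, adjusted p = 0.0041). The groups did not overlap for either gene. Neither was called with outlier spots kept, and in the deposited matrix the adjusted p was 0.392 for Sqor and 0.196 for Glrx. Glrx was the only called gene of 19 tested antioxidant genes, whose median change was 0.05.

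Several rises were seen by more than 1 probe. Of the 74 higher genes 14 had several tested probes, all of them were called in 6, and they shared the sign in 13, the exception being Apoe with changes of 1.76 and −0.12. G3bp2, an RNA-binding protein of stress granules, was called with 4 of 5 probes. The probe with the lowest p was at 2.04, 2.25 and 2.37 in ES and at 4.09, 3.97 and 3.94 in ESRE, a change of 1.78 (SE 0.20, adjusted p = 0.0041), and the one that was not called changed by 0.75 (adjusted p = 0.163). Sp3, a transcription factor that binds GC boxes, was at −4.13, −3.80 and −3.61 in ES and at −1.84, −1.85 and −1.76 in ESRE, a change of 2.03 (SE 0.25, adjusted p = 0.0041). Its second probe changed by 2.12. Rapgef1, an exchange factor that activates the GTPase Rap1, was called with all 3 of its probes. The first was at −0.33, −0.10 and −0.22 in ES and at 1.74 and 1.58 in ESRE replicates 1 and 2, replicate 3 being an outlier spot, a change of 1.88 (SE 0.24, adjusted p = 0.00486). The others changed by 1.90 and 2.10. C5ar2, a receptor for the complement fragment C5a, rose by 1.41 (SE 0.17, adjusted p = 0.0041), from between −5.15 and −4.89 to between −3.69 and −3.44, and its second probe by 1.54.

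Larger rises came with larger errors. Olfr1465, an olfactory receptor gene, rose by 2.41 (SE 0.47, adjusted p = 0.0381), from −1.01, −1.77 and −0.85 to 1.18, 1.25 and 1.17. Ccl3, a chemokine of leukocytes, rose by 2.28 (SE 0.41, adjusted p = 0.0222), from −5.47, −5.58 and −4.81 to −3.13, −2.75 and −3.16. Both genes are known from cells other than stem cells. Mrgprg, an orphan receptor of sensory neurons, rose by 2.18 (SE 0.46, adjusted p = 0.0487) from levels between −7.34 and −5.95. Blvrb, a biliverdin reductase, rose by 1.93 (SE 0.30, adjusted p = 0.0402), on 1 ES array (−1.13) and 2 ESRE arrays (0.80 on both). NM_001111280, an mRNA with no symbol in the tables used, rose by 2.02 (SE 0.29, adjusted p = 0.00588). Slc32a1, the vesicular transporter of inhibitory transmitters, had the largest fitted change among called genes. It was not well above background on any ES array and entered the test through ESRE alone, so its call is no independent support. The ESRE level of Slc32a1 was at least 5.80-fold higher. Rnf125, AK044609 and AK134478, well above background on 2 ES arrays each, also entered through ESRE alone, and the same limit holds for them.

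**Figure D2:**
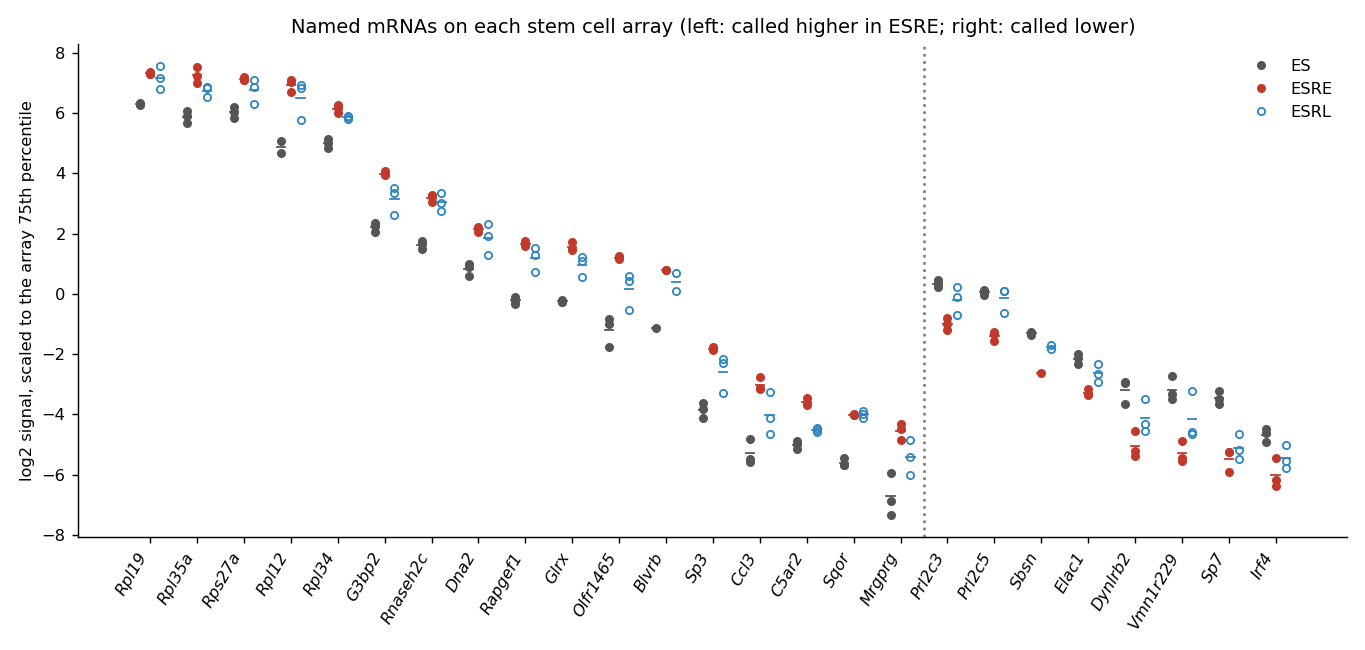
Levels (log2 signal scaled to the 75th percentile of the array) of the named mRNAs on each ES (grey), ESRE (red) and ESRL (open blue) array, with a bar at each group's mean. To the left of the dotted line are genes called higher in ESRE and to the right genes called lower. The red and grey points of a gene do not overlap.

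The falls lay at lower levels. Of the 44 genes 8 were not well above background on any ESRE array, and their ES levels were at least 1.27-fold to 4.61-fold higher. Only 22 of the 44 were well above background on all 6 arrays. All the others, these 8 among them, entered the test through ES alone, so their calls are no independent support. With normexp background correction 7 genes were called lower, 4 of them among the 44. Among mRNAs above background on all 6 arrays, Vmn1r229, a vomeronasal receptor gene, fell most, from −3.34, −2.74 and −3.47 to −5.44, −5.54 and −4.87, a change of −2.10 (SE 0.34, adjusted p = 0.014). Sp7, the osteoblast transcription factor osterix, went from −3.65, −3.23 and −3.48 to −5.91, −5.24 and −5.25, a change of −2.01 (SE 0.33, adjusted p = 0.0141). Dynlrb2, a light chain of the dynein motor, changed by −1.88 (SE 0.29, adjusted p = 0.0113). The prolactin family genes Prl2c5 and Prl2c3, whose sequences are nearly identical, were brighter. Prl2c5 went from −0.03, 0.07 and 0.14 to −1.57, −1.33 and −1.25, a change of −1.45 (SE 0.20, adjusted p = 0.0106), and Prl2c3 changed by −1.34 (SE 0.24, adjusted p = 0.0308). Irf4, a transcription factor of lymphocytes, changed by −1.33 (SE 0.23, adjusted p = 0.0214). Elac1, a tRNA processing enzyme, changed by −1.12 (SE 0.22, adjusted p = 0.0408). Sbsn, an epidermal protein, changed by −1.33 (SE 0.25, adjusted p = 0.0408) with 1 usable ESRE spot, and its brighter second probe by −0.45 (adjusted p = 0.763).

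Probes called lower were gathered in the middle of the array. The grid of 532 rows and 85 columns was divided into 9 equal parts, and the central part held 11.5% of the tested probes. It held 21 of the 44 probes called lower (47.7%) and 14 of the 85 called higher (16.5%). In the central part 11.3% of all tested probes fell by over 1, against 2.66% elsewhere, and the shares that rose by over 1 were 2.13% and 1.62%. The median change was −0.06 in the center and −0.08 elsewhere, at like median levels (−2.95 and −2.85). Vmn1r229, Sp7, Dynlrb2 and Elac1 lie in the central part, and Prl2c5, Prl2c3, Irf4 and Sbsn outside it. Without the central part the fit called 54 genes higher and 21 lower, a choice made after the positions were seen. The part that position plays in the falls was not tested further.

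**Figure D3:**
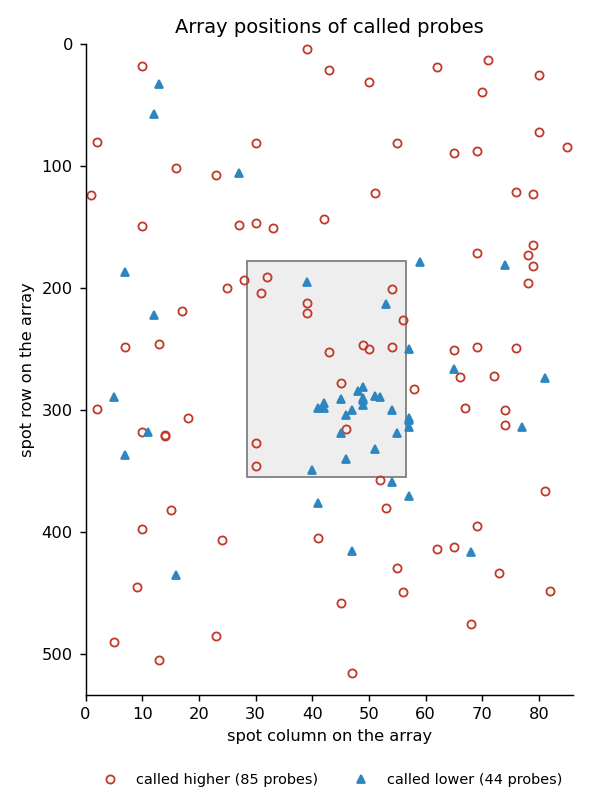
Row and column on the array of the 85 probes called higher (open red circles) and the 44 called lower (blue triangles). The grey box is the central one of 9 equal parts, in which 21 of the 44 triangles lie, against 14 of the 85 circles.

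Immediate early genes did not pass the test in stem cells at this time. Of 26 tested, limma called 0. At an unadjusted p under 0.05 there were 3, all of them lower (9.48% of all genes passed that limit in either direction). The methods' t-test with a change over 1 gave 0 (2.69% of all genes). The median change was −0.12, and of 22 measured on all 6 arrays 11 were lower without overlap (20.8% of all genes) and 1 was higher (14%). Fos was at 1.43, 1.32 and 1.55 in ES and at 1.32, 1.39 and 1.49 in ESRE, a change of −0.03 (SE 0.25, adjusted p = 0.998), and its groups overlapped. Egr1 was at 0.29, 0.36 and 0.24 in ES and at 0.52, 0.54 and 0.53 in ESRE, higher without overlap. Its change was 0.23 (SE 0.24, adjusted p = 0.915), below the limit of 1 for a call. That SE comes from the fit to the arrays of all groups. The standard deviation of Egr1 was 0.06 in ES and 0.01 in ESRE, so its p does not show that Egr1 was flat. In EDRE against ED both Fos and Egr1 were called higher, with changes of 1.73 for Fos (adjusted p = 0.00638) and 1.68 for Egr1 (adjusted p = 0.00291). The difference between the changes of stem and differentiated cells passed the test for each, at −1.76 (SE 0.38, adjusted p = 0.0342) for Fos and −1.45 (SE 0.34, adjusted p = 0.0454) for Egr1.

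Genes that p53 controls likewise had no call. Limma called 0 of 32. At an unadjusted p under 0.05 there were 3, all higher, while 9.48% of all genes passed that limit in either direction. The methods' t-test gave 0 (2.69% of all genes). The median change was −0.04. Mdm2 was at 4.32, 4.56 and 4.37 in ES and at 4.32, 4.19 and 4.20 in ESRE, a change of −0.18 (SE 0.14, adjusted p = 0.842). Cdkn1a changed by −0.45 (SE 0.30, adjusted p = 0.754) and Ccng1, which encodes cyclin G1, by −0.30 (SE 0.25, adjusted p = 0.857). Btg2, an antiproliferative gene, changed by 0.20 (SE 0.44, adjusted p = 0.991). Trp53inp1, a proapoptotic p53 target, came closest to a call. It was at 2.53, 2.81 and 2.66 in ES and at 3.53, 3.42 and 3.44 in ESRE without overlap, a change of 0.80 (SE 0.23, adjusted p = 0.17). Bbc3, a proapoptotic gene, was not above background often enough to be tested. Its levels were between −10.31 and −9.62 in ES and between −9.60 and −8.68 in ESRE.

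Genes that sense and repair DNA damage held a single call. Of 28 damage sensing genes, limma called 0, and the median change was 0.10. At an unadjusted p under 0.05 there was 1 (9.48% of all genes), and the methods' t-test gave 1 (2.69% of all genes). H2ax, the histone that is phosphorylated at breaks, was at 5.64, 5.59 and 5.53 in ES and at 6.24, 6.10 and 6.47 in ESRE, a change of 0.68 (SE 0.16, adjusted p = 0.106). Atm was at −4.40, −3.29 and −3.40 in ES and at −2.32, −2.07 and −2.32 in ESRE without overlap, a change of 1.46 (SE 0.81, adjusted p = 0.67) that passed with array weights and without EDRE replicate 1. The 2 probes of Trp53 differed in sign, at 0.61 (SE 0.84, adjusted p = 0.962) on 1 ES and 2 ESRE arrays and at −0.27 (SE 0.41, adjusted p = 0.971) on all 6. Among 31 genes of double-strand break repair the median change was 0.02. Dna2, a nuclease and helicase that resects broken ends, was at 0.60, 0.88 and 0.98 in ES and at 2.19, 2.06 and 2.22 in ESRE, a change of 1.33 (SE 0.22, adjusted p = 0.0214). Dclre1c, the Artemis nuclease of end joining, changed by 2.01 (SE 0.45, adjusted p = 0.0612). Among 28 DNA replication genes, Rnaseh2c, a subunit of the enzyme that removes ribonucleotides from DNA, was at 1.67, 1.50 and 1.75 in ES and at 3.06, 3.22 and 3.28 in ESRE, a change of 1.54 (SE 0.19, adjusted p = 0.00486). The median of that list was 0.08.

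The PP2A catalytic subunits differed in what was measured. Ppp2ca was at 2.26 and 2.32 in ES replicates 2 and 3, the spot of replicate 1 being an outlier, and at 3.79, 3.55 and 3.50 in ESRE. Its change of 1.32 (SE 0.31, unadjusted p = 0.00132) did not pass the test over all probes (adjusted p = 0.107). It passed with scaling to the median, with outlier spots kept, with array weights, without ESRL replicate 1 and in the deposited matrix (change 1.57, adjusted p = 0.0171). Ppp2cb was at 4.45, 4.22 and 4.48 in ES and at 4.67 and 4.37 in ESRE replicates 1 and 2, a change of 0.14 (SE 0.20, adjusted p = 0.969). Of 21 PP2A subunit genes tested, limma called 0 and the unadjusted test and the methods' t-test each gave 1, Ppp2ca. Those 2 tests gave 9.48% and 2.69% of all genes. The median change was −0.10.

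Pluripotency genes had no call among 23, with 3 at an unadjusted p under 0.05, all higher, and 0 by the methods' t-test, at a median change of 0.11. Over all genes 9.48% had an unadjusted p under 0.05 and 2.69% passed the t-test, shares that also apply to the lineage markers below. Pou5f1, a transcription factor that defines stem cells, was at 6.80, 6.64 and 6.63 in ES and at 7.20, 7.17 and 7.58 in ESRE, a change of 0.62 (SE 0.28, adjusted p = 0.499). Sox2 changed by 0.11 (SE 0.25, adjusted p = 0.992). Nanog had a usable spot on only 1 of the 6 arrays and was not tested. With outlier spots kept it was at 1.82 to 2.13 in ES and at 0.84 to 1.11 in ESRE without overlap, a change of −0.96, and in the deposited matrix its change was −0.87 (adjusted p = 0.162). Markers of other lineages had no call. The 8 primitive endoderm markers all had changes below 0, with a median of −0.50 and a range from −1.03 to −0.09. Of these, 6 of 7 measured on all arrays were lower without overlap, as were 20.8% of all genes. Pdgfra, a growth factor receptor of that lineage, changed by −1.03 (SE 0.26, adjusted p = 0.114). The 8 mesoderm markers had a median of 0.43, from −0.53 to 1.60 with 5 above 0, and Gsc had the highest (SE 0.37, adjusted p = 0.0722). Limma called 0 in both lists, with 2 genes at an unadjusted p under 0.05 in each and 1 in each by the methods' t-test. Medians were −0.14 for 8 neuroectoderm, −0.21 for 7 trophectoderm, −0.23 for 9 fibroblast and 0.32 for 8 two-cell-like markers, with 0 called. Of these, 0, 1, 2 and 3 had an unadjusted p under 0.05, and the methods' t-test gave 1, a fibroblast marker. A small change in the make-up of the culture and a change of RNA per cell cannot be told apart in these bulk samples.

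Other lists of abundant mRNAs lay above the median of all genes without a call. Over all genes, 9.48% had an unadjusted p under 0.05 by limma, and 2.69% passed the methods' t-test with a change over 1. The 66 oxidative phosphorylation genes had a median change of 0.23, with 17 higher and 1 lower at an unadjusted p under 0.05 and 1 by the methods' t-test. Cox7c, a subunit of cytochrome c oxidase, was at 6.42, 6.34 and 6.55 in ES and at 7.07, 6.92 and 6.88 in ESRE (change 0.52, SE 0.14, adjusted p = 0.141). The 55 replication-dependent histone genes, whose probes may read near-identical copies, had a median of 0.25, with 9 at an unadjusted p under 0.05, all higher, and 1 by the t-test. Medians were 0.14 for 51 translation factor genes, 0.11 for 33 proteasome genes and 0.14 for 32 cell cycle genes, with 6, 4 and 6 at an unadjusted p under 0.05 and 0, 0 and 1 by the t-test. With quantile normalization, where the median of all genes was −0.03, the medians were 0.04 for oxidative phosphorylation, 0.25 for histone, −0.02 for translation factor, −0.09 for proteasome and −0.06 for cell cycle genes, the last 2 thus below that of all genes. Mitochondrial ribosomal protein genes (60) had a median of 0.00, heat shock genes (15) of 0.11, apoptosis genes (29) of −0.01, NF-kB target genes (15) of −0.20 and named long noncoding RNAs (13) of −0.16. None of these was called, and 4, 3, 2, 4 and 4 had an unadjusted p under 0.05, while the t-test gave 2, both noncoding RNAs. Neat1, the scaffold RNA of paraspeckles, was at 0.81, 1.15 and 0.88 in ES and at −0.42, 0.06 and 0.11 in ESRE, a change of −1.03 (SE 0.22, adjusted p = 0.0621). Olfactory, vomeronasal and taste receptor genes, which are hardly expressed outside sense organs, had a median of −0.35 over 566 genes, with 1 called higher and 2 lower. With normexp background correction that median was −0.05.

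**Figure D4:**
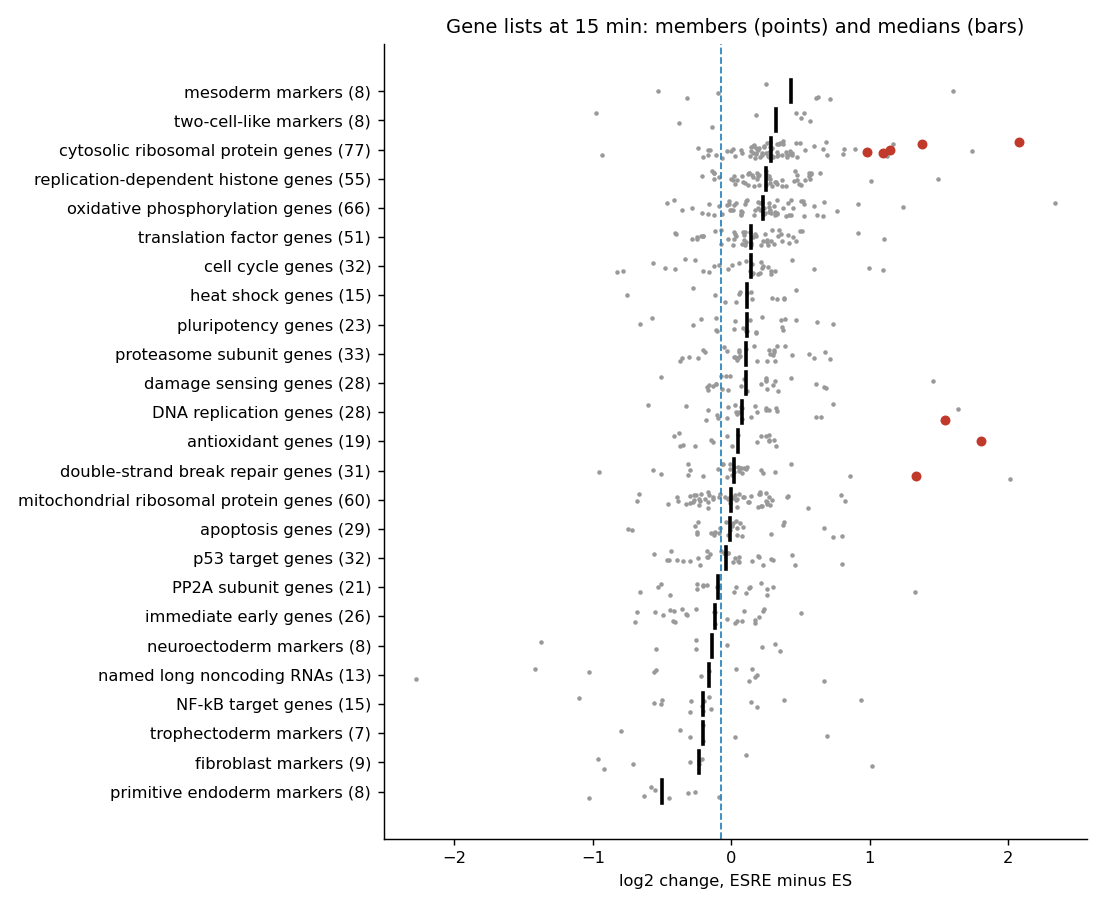
Change at 15 min (ESRE minus ES, log2) of the members of each list, 1 probe a gene, with the number of genes tested after its name. Black bars are medians, the dashed line is the median of all genes (−0.08) and red points are genes with a called probe. The receptor genes of sense organs are not drawn. The 8 red points all lie above 0, and 5 of them are ribosomal protein genes.

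Transcripts without an mRNA accession made up 21 of the 74 higher and 25 of the 44 lower genes, out of 9980 such genes tested and 15527 with one. AK083336 was at −3.08, −2.50 and −2.55 in ES and at −0.28, −0.16 and −0.29 in ESRE, a change of 2.47 (SE 0.32, adjusted p = 0.00462). AK013157 changed by 2.50 (SE 0.52, adjusted p = 0.0446), uc007ayq by 2.43 (SE 0.32, adjusted p = 0.00532), AK009928 by 2.02 (SE 0.34, adjusted p = 0.0215) and AK013865 by 1.82 (SE 0.31, adjusted p = 0.0214). Among the falls AK012993 had the lowest p of all genes. It was at −1.94, −2.18 and −2.20 in ES and at −3.36, −3.50 and −3.51 in ESRE, a change of −1.35 (SE 0.13, adjusted p = 0.00206), and its probe lies in the central part of the array. Next came uc008rss, at −4.02, −3.98 and −4.29 in ES and at −5.78, −6.11 and −5.65 in ESRE, a change of −1.75 (SE 0.22, adjusted p = 0.0041). The probe of uc008rss lies outside that central part, as does that of AK031634 (change −1.65, adjusted p = 0.0214), while uc007kit (−2.06, adjusted p = 0.0402), uc008ghy (−1.68, adjusted p = 0.0442) and AK052212 (−1.56, adjusted p = 0.0408) lie in it. No role is known from the tables used for these transcripts.

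The genes called at 15 min had smaller median changes at 4 h, but they were chosen by the 15 min change, so this is a description and no test. Over all genes 177 were higher and 1766 lower at 4 h. ESRL and ESRE are compared with the same ES arrays, so the values are given side by side and are not independent. Of the 74 genes higher at 15 min, 71 could be tested at 4 h, 70 were above ES and 31 were called (0.691% of all genes were called higher), at a median change of 1.03. Of the 44 lower genes 40 were below ES at 4 h and 8 were called (6.9% of all genes), at a median of −0.76. Sqor had changes of 1.59 at 15 min and 1.60 at 4 h, and Rnaseh2c of 1.54 and 1.41. G3bp2 had changes of 1.78 and 0.94, Glrx of 1.81 and 1.20, and C5ar2 of 1.41 and 0.49. The arrays of ESRL differed among themselves. Over the higher genes, the median distance from the ES mean was 1.16 and 1.29 for ESRL replicates 2 and 3, scanned with ESRE replicates 1 and 2, and 0.68 for ESRL replicate 1, scanned alone. The same distance was 1.48, 1.52 and 1.60 for ESRE replicates 1, 2 and 3, the last of which was scanned with ED. Mdm2 had a change of −0.18 at 15 min and was at 5.49, 5.15 and 5.21 at 4 h, a change of 0.87 (adjusted p = 0.00387).

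In differentiated cells at 15 min the same genes had smaller median changes, but not every gene was near its control. Of the 74 higher genes, 68 could be tested in EDRE against ED, 25 were above ED and 2 were called higher (2.23% of all genes), at a median change of −0.14. Of the 44 lower genes, 31 of 42 were below ED and 6 were called lower (2.97%), at a median of −0.28. The difference between the changes in stem and differentiated cells was called for 41 of 72 higher genes (0.85% of all genes) and 11 of 44 lower genes (1.24%). Those shares are no independent support, because the stem cell change that chose the genes is part of the difference. For Sp3 the change was 2.03 in stem cells and −0.77 in differentiated cells, a difference of 2.80 (SE 0.35, adjusted p = 0.00361). For Glrx it was 1.81 and −0.08, a difference of 1.89. For Rpl12 it was 2.08 and −0.15, and the difference of 2.23 was not called. Both Glrx and Rpl12 had a usable EDRE spot on replicate 1 only, so these differences rest on a single irradiated array of differentiated cells. EDRE replicates 2 and 3 were dim arrays with 24.4% and 23.8% of spots marked as outliers, and without EDRE replicate 1 the counts of genes with a called difference went from 219 and 319 to 1523 and 4622.

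**Figure D5:**
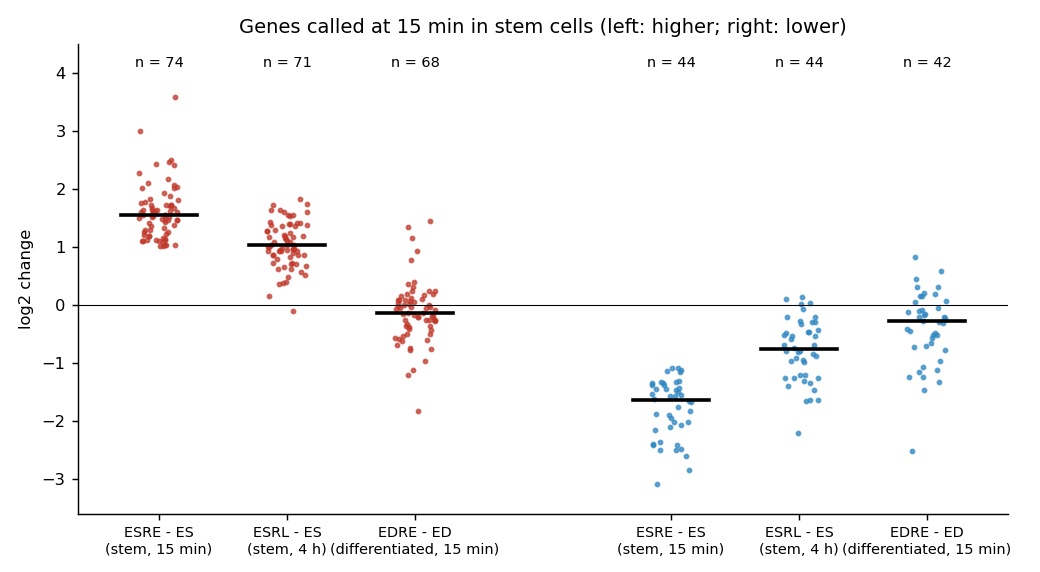
Log2 change in 3 comparisons of the genes called at 15 min in stem cells, on the left the 74 higher (red) and on the right the 44 lower (blue). Each point is a gene, bars are medians, and n is the number of genes with a value. The first column of each set chose the genes, and the second shares its control arrays. Medians of the higher genes are 1.55, 1.03 and −0.14.

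How far a call rested on 1 array differed between genes. Sp3, G3bp2, Glrx, Sqor, C5ar2, Rnaseh2c, NM_001111280, AK083336, uc007ayq and uc008rss, 10 of the 36 named genes that were called, stayed called without each of the 6 arrays in turn. Another 11 were lost without some of them, Rpl12, Rpl34 and Rpl35a among these, and 15 were lost whichever of them was left out, including Rpl19, Rps27a, Dna2, Ccl3 and Olfr1465. All 36 kept their direction in each of 8 alternative settings, but their calls did not all hold. Of the 36, 17 were lost with normexp background correction, 16 with outlier spots kept, 8 each with quantile normalization and the replicate block, 7 with the 75th percentile over probes well above background on all 18 arrays, 3 with scaling to the median and 0 with array weights. With scan time as a block all 36 were lost (limma, adjusted p of 1.00 for each).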

How the data were processed

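One array per sample was analyzed. The authors deposited processed signals, which are background-subtracted intensity values with no normalization between arrays (Agilent Feature Extraction, 10.7.3.1 per the file headers and 9.1 per the labels), and a log2 matrix of 30133 probes, used as an alternative. In that matrix a value is close to the log2 signal minus a constant of its array (r with the scanner values 0.998 to 1.00, column medians 0.57 to 0.72). Control spots (1417 marked and 200 unmarked) and outlier spots were left out, which left 37246 probes. The log2 of the array's 75th percentile over non-control spots was subtracted from each log2 signal. A probe was tested if all 3 arrays of ES or of ESRE read it well above background and each group had a usable spot, with limma 3.58.1 (R 4.3.3) in a fit of the 6 group means to 18 arrays, with Benjamini-Hochberg adjustment over the probes tested. The t-test named in the methods was run on the same values. The number of arrays limits the precision. Gene names came from RefSeq for 22216 probes and from the files otherwise. List medians use the brightest probe of a gene. Gene lists, named genes and alternatives were chosen with earlier results of these data known. Named genes are the 10 largest rises, up to 10 largest falls (8 met the conditions) and the 5 lowest p in each direction among mRNAs called, above background on all 6 arrays and without overlap, the 5 largest each way among other transcripts, called list members and 20 fixed genes. Slc32a1, Apoe, H2ax, Dclre1c, Pdgfra, Gsc, Cox7c, Neat1, AK012993 and the motif were chosen after their values or sequences were seen. Scripts were tested on simulated data. Alternatives changed background correction, scaling, filter, spots, block, arrays, weights, test, fold limit and input. Same-numbered arrays of ES and ESRE did not deviate together (correlations from −0.24 to 0.05 over 3 pairs), so the replicate number was not used to pair them.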

Additional observations from a re-analysis of the deposited data

Results flagged for a closer look

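For 20 of the 36 named genes called at 15 min, and for Fos, Egr1 and Pou5f1, the change in stem cells differed from that in differentiated cells by the interaction test of limma (adjusted p from 0.00361 to 0.0488). Values are differences of log2 changes, stem minus differentiated. Sqor, G3bp2, Glrx, Blvrb and Prl2c5 are among the genes with a usable EDRE spot on replicate 1 only. Not every such gene is named, so some of the other differences may also rest on a single irradiated array of differentiated cells. Among mRNAs called higher in ESRE they were 1.42 for C5ar2, 1.44 for Rpl35a, 1.50 for Sqor, 1.60 for Rnaseh2c, 1.81 for G3bp2, 1.85 for Rapgef1, 1.89 for Glrx, 2.18 for Blvrb, 2.49 for Ccl3, 2.80 for Sp3 and 2.98 for NM_001111280. Other transcripts called higher had differences of 2.07 for AK083336, 2.93 for uc007ayq, 3.02 for AK013865 and 4.33 for AK013157. Among genes called lower they were −1.89 for Prl2c5, −1.44 for Elac1, −1.39 for Sbsn, −1.58 for uc008rss and −2.24 for AK031634. Fos, Egr1 and Pou5f1 were not called at 15 min in stem cells. Fos (−1.76) and Egr1 (−1.45) rose in EDRE, and Pou5f1 (2.30) changed by −1.68 in EDRE (adjusted p = 0.00634), from between −3.65 and −3.50 in ED to between −6.07 and −4.52, levels far under those of stem cells. With scan time as a random block 0 differences were called.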

How the results depend on the processing

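Counts are given as genes higher and lower in ESRE, 74 and 44 in the fit reported. They were 58 and 7 with normexp background correction, 119 and 49 with scaling to the median, 46 and 51 with the 75th percentile over probes well above background on all 18 arrays, and 122 and 49 with quantile normalization. They were 363 and 521 with array weights, 51 and 28 with no detection filter, 88 and 27 for probes well above background on all 6 arrays, 307 and 211 with only the 6 arrays fitted, and 51 and 22 with only the 9 stem cell arrays. A change over 1 with no test gave 441 and 1013, the methods' t-test 344 and 373 unadjusted and 142 and 62 with Benjamini-Hochberg adjustment, and the deposited matrix 54 and 30. Outlier spots kept gave 54 and 33, and no fold limit 94 and 51. Of 2 alternatives chosen after seeing the data, probes usable on all 6 arrays gave 68 and 48, and leaving out the center of the array 54 and 21. With the scan time block both counts were 0. Without 1 of the 6 arrays compared, the counts ran from 18 to 32 and from 7 to 58. Without 1 of the other 12 they ran from 47 to 191 and from 27 to 107, the highest without EDRE replicate 1 and the lowest without ED replicate 2. The cause of these moves was not tested.

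For the difference between stem and differentiated cells, 219 genes were more positive in stem and 319 in differentiated cells. Normexp gave 17 and 41, scaling to the median 175 and 505, quantile normalization 226 and 166, outlier spots kept 339 and 380, array weights 805 and 1683, and the scan time block 0 and 0. Without 1 of the 6 arrays of ES and ESRE the counts ran from 48 to 72 and from 88 to 145, and without 1 of the others from 63 to 1523 and from 109 to 4622.

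Same-numbered arrays did not deviate together. The replicate block gave 58 and 44 genes at 15 min, and 132 and 250 for the difference between cell types. No named gene reversed a call in any setting run. Signal over background limits the falls more than the rises, since 22 of the 44 lower genes and 70 of the 74 higher genes were well above background on all 6 arrays.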
